A study of Homo sapiens with 8 samples.

Results

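The NF-kappaB subunits and their feedback targets were described in HT144, an established human melanoma cell line, on 8 Illumina bead arrays. The set held 9 listed genes: the subunit genes NFKB1, NFKB2, RELA and RELB, and the target genes NFKBIA, TNFAIP3, BIRC3, SOD2 and ICAM1. Members were taken by symbol, old or updated, from the platform annotation of the arrays. Of the 9, 8 had a listed probe, out of 20044 genes with a single symbol, and all 8 were among the 13974 genes that passed a filter on detection and were tested. BIRC3 had no listed probe and was not analysed here. The 8 genes were covered by 12 probes, of which 10 passed the filter.

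NF-kappaB is a family of transcription factors that act as pairs of subunits. In resting cells the pairs are held in the cytoplasm by I-kappaB proteins, and signals from receptors of tumour necrosis factor, interleukin-1 or microbial products lead to I-kappaB breakdown and entry of the pairs into the nucleus, where they bind kappaB sites in DNA. Among the targets they induce are their own inhibitors, which end the response, and genes of cytokines, adhesion and survival. In melanoma, NF-kappaB activity has been studied for its part in cytokine release and cell survival.

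The cells came from a melanoma metastasis and fell into 3 groups. The controls carried an empty vector (3 arrays), a second group overexpressed SETDB1 (SETDB1 OE, 2 arrays), and the other overexpressed a mutant form (HC/KA-SETDB1 OE, 3 arrays). SETDB1 methylates histone H3 and is known for silencing genes and repeats. The sources used here do not explain HC/KA, nor do they say whether a group was 1 clone. The labels do not describe replicates as separate cultures, so the spread behind each p-value is that of these samples and may be technical. The arrays lay on 1 chip with each group at neighbouring positions, so position and group cannot be told apart.

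The only passing SETDB1 probe did not check the labels. It read 8.25, 8.19 and 8.04 (normalized log2 intensity) on the empty vector arrays, 8.0 and 7.66 on those labelled SETDB1 OE, and 8.32, 8.42 and 9.0 on those labelled HC/KA-SETDB1 OE. After normalization both SETDB1 OE arrays lay below all 6 others, replicate 1 by a small margin. In raw intensity SETDB1 OE replicate 1 (358.7) lay above empty vector replicates 1 and 3 (354.8 and 347.6) and HC/KA-SETDB1 OE replicate 1 (358.6). The sources used here do not place the probe inside or outside the construct. Every direction below therefore rests on the labels. The median raw intensity per array was between 89.0 and 94.4, and between 44.6% and 45.7% of probes were detected. The melanocyte transcription factor gene SOX10 read from 11.08 to 12.10, and 9 of 10 pigment lineage markers were measured, while the defining markers PTPRC (leukocytes), PECAM1 (endothelium) and EPCAM (epithelium) were not detected on 2 or more arrays. Other markers of those lists were detected, among them CD68, CD14 and FCGR3A on 8 arrays, KDR on 6 and KRT18 on 4, as were the matrix genes COL1A2 and LUM of the fibroblast list on 8. In the HC/KA-SETDB1 OE group 2 arrays correlated more closely, over all genes, with an empty vector array than with their own label. For replicate 2 Pearson's r was 0.987 with empty vector replicate 3, against 0.961 and 0.978 with replicates 1 and 3, and for replicate 1 it was 0.970 with empty vector replicate 1, against 0.961 and 0.969 with replicates 2 and 3. The SD of background intensity that the correction estimated was 13.65 for SETDB1 OE replicate 1 and 25.89 for empty vector replicate 2, and from 4.58 to 6.77 for the other 6 arrays.

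To show what kind of sequence lies at the members' starts, the 250 bases before each RefSeq transcription start (assembly GRCh38.p14) were searched for the kappaB-like pattern GGNNNTTCC on either strand, the reverse complement being GGAANNNCC. The table of starts held 15 windows for 8 of the 9 members, RELB having no entry. The pattern was found for 6 of these 8 members, against 20.2% of 27305 genes and 17.1% of 35116 windows. A match describes these letters and says nothing of binding in these cells. The 30-base stretches are given 5′ to 3′ on the strand of the gene, with the matching bases, overlapping matches joined, in capitals.
TNFAIP3, chr6:137867187-137867216, + strand: actttGGAAAGTCCcgtGGAAATCCCcggg
NFKBIA distal, chr14:35404970-35404999, - strand: ggtcggaaGGACTTTCCagccactcggcgc
NFKBIA proximal, chr14:35404812-35404841, - strand: ctgactggcttGGAAATTCCccgagcctga
NFKB1, chr4:102501300-102501329, + strand: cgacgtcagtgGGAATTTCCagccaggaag
NFKB2 upstream start, chr10:102394461-102394490, + strand: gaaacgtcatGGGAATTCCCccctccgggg
NFKB2 upstream start, chr10:102394490-102394519, + strand: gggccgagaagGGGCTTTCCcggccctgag
NFKB2 downstream start, chr10:102395518-102395547, + strand: taacccccaccGGGGCTTCCcggattctcc
NFKB2 downstream start, chr10:102395674-102395703, + strand: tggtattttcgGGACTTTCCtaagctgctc
BIRC3, chr11:102317274-102317303, + strand: ttttgggtcatGGAAATCCCcgagtgggtt
ICAM1, chr19:10270923-10270952, + strand: tgctttagcttGGAAATTCCggagctgaag

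The TNFAIP3 stretch carried 2 separate matches, and NFKB2 had 4 over the 2 of its 3 windows shown. The letters of the SOD2 and RELA windows (4 and 2 windows) held no match. The genes lie at chr6:137866349-137883312 (TNFAIP3), chr14:35401513-35404749 (NFKBIA), chr6:159669069-159762281 (SOD2), chr19:10271120-10286615 (ICAM1), chr4:102501359-102617302 (NFKB1), chr10:102394110-102402529 (NFKB2), chr11:65653601-65663857 (RELA), chr19:45001464-45038192 (RELB) and chr11:102317484-102339403 (BIRC3).

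TNFAIP3 was higher in SETDB1 OE than in HC/KA-SETDB1 OE cells. It was the 1 member of 8 that passed the test in any of the 3 comparisons. That call was lost under 8 of the 16 alternatives tried, and the 2 SETDB1 OE arrays lay 1.73 apart on the log2 scale. Changes were tested with limma over all 13974 genes and called at a Benjamini-Hochberg adjusted p under 0.05. Between SETDB1 OE and empty vector, 0 of the 8 members were called, against 0.265% of all genes. Without adjustment 3 (SOD2, TNFAIP3 and RELB) had p under 0.05, all higher in SETDB1 OE, against 5.14% of all genes. Between HC/KA-SETDB1 OE and empty vector, 0 were called, against 0.322%, and 1 (ICAM1, higher) had an unadjusted p under 0.05, against 6.46%. In SETDB1 OE against HC/KA-SETDB1 OE, 1 was called (higher), where 4.34% of all genes were called and 2.08% were called higher, and 4 (TNFAIP3, SOD2, RELA and NFKB1) had an unadjusted p under 0.05, all higher in SETDB1 OE, against 10.4%. The 3 comparisons share arrays pairwise, so their values are given side by side.

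**Figure D1:**
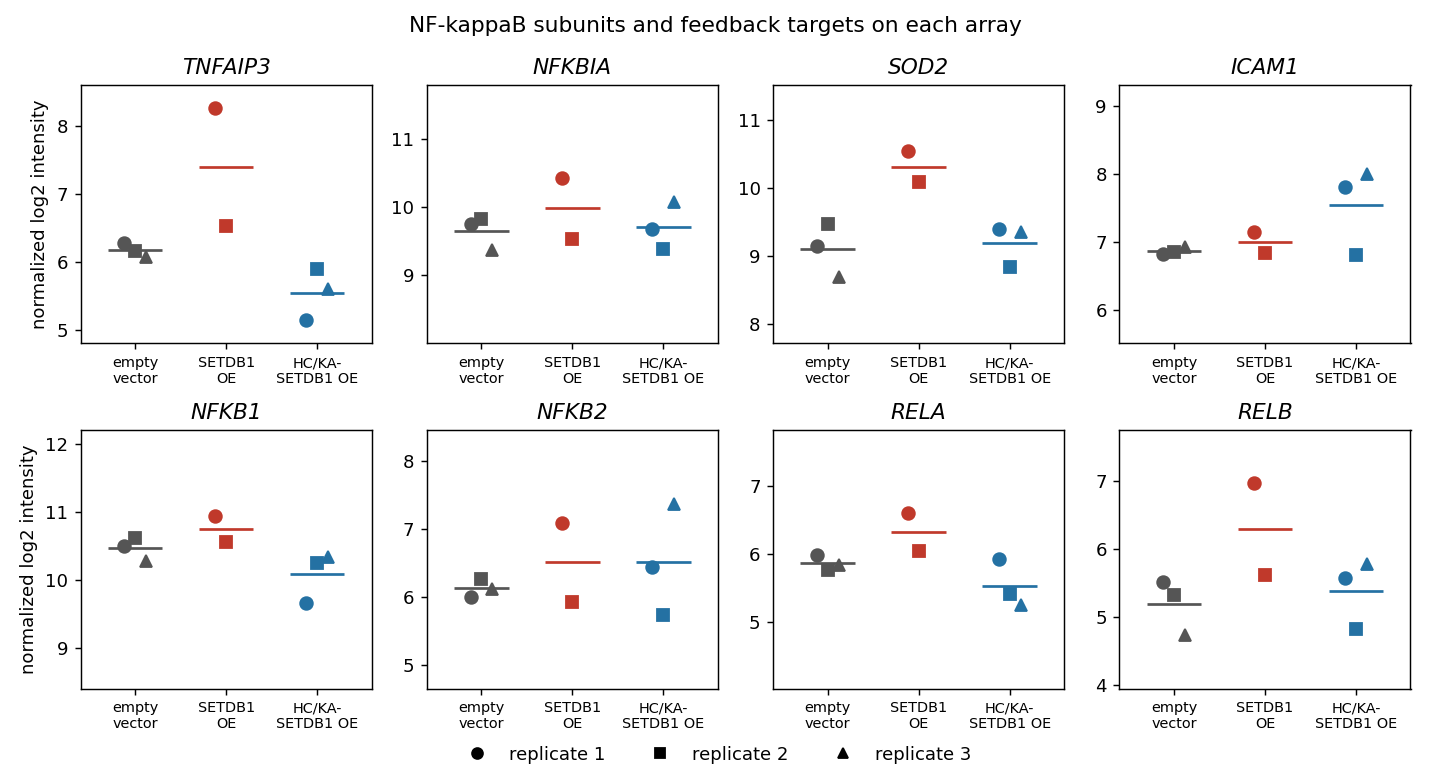
Normalized log2 intensity (y axis, 1 panel per gene, each with its own range) of the 8 measured members on each array, with groups along the x axis, marker shapes for replicates and lines for group means. SOD2 is above 10 on both SETDB1 OE arrays and below 9.5 on the other 6, whereas TNFAIP3, RELB and NFKB2 are much higher on SETDB1 OE replicate 1 than on replicate 2.

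NFKB1 encodes p105, which is processed to the DNA-binding subunit p50. Its probe read 10.49, 10.62 and 10.28 on the empty vector arrays, 10.94 and 10.56 on the SETDB1 OE arrays, and 9.67, 10.25 and 10.35 on the HC/KA-SETDB1 OE arrays. The SETDB1 OE arrays lay above all HC/KA-SETDB1 OE arrays, while empty vector overlapped both. The log2 difference of SETDB1 OE from HC/KA-SETDB1 OE was 0.66 (SE 0.25, 95% interval 0.11 to 1.22), which did not pass the test (limma adjusted p = 0.155). The differences from empty vector were 0.29 (SE 0.25) for SETDB1 OE and -0.38 (SE 0.22) for HC/KA-SETDB1 OE, with adjusted p = 0.755 and 0.541.

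RELA encodes p65, the subunit with a transactivation domain that pairs with p50 in the classical pathway. It was a dim probe, with raw intensities between 103.5 and 178.9, near the array medians. Normalized values were 5.99, 5.78 and 5.85 in empty vector, 6.61 and 6.05 in SETDB1 OE, and 5.93, 5.41 and 5.25 with HC/KA-SETDB1 OE. Both SETDB1 OE arrays lay above all others, replicate 2 by a small margin. The difference was 0.45 (SE 0.26, 95% interval -0.11 to 1.02, adjusted p = 0.559) against empty vector and 0.80 (SE 0.26, 0.23 to 1.36, adjusted p = 0.105) against HC/KA-SETDB1 OE. The latter group overlapped empty vector and differed from it by -0.34 (SE 0.23, adjusted p = 0.604).

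RELB and NFKB2 belong to the alternative pathway, in which the p100 product of NFKB2 is processed to p52, the partner of RELB. RELB read 5.52, 5.32 and 4.73 in empty vector, 6.96 and 5.62 in SETDB1 OE, and 5.57, 4.82 and 5.78 with HC/KA-SETDB1 OE. Replicate 1 of SETDB1 OE was the one high array, and replicate 2 lay just above the highest empty vector array and below the highest HC/KA-SETDB1 OE array. The difference of SETDB1 OE from empty vector was 1.10 (SE 0.41, 95% interval 0.19 to 2.02, 2.15-fold, limma adjusted p = 0.365), and without SETDB1 OE replicate 1 it was 0.43. The value against HC/KA-SETDB1 OE was 0.90 (SE 0.41, adjusted p = 0.229), and between HC/KA-SETDB1 OE and empty vector 0.20 (SE 0.37, adjusted p = 0.874).

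NFKB2 read 6.0, 6.27 and 6.12 in empty vector, 7.10 and 5.93 in SETDB1 OE, and 6.44, 5.73 and 7.37 with HC/KA-SETDB1 OE. High and low arrays stood side by side within both overexpression groups, whose SDs were 0.82 and 0.82 against 0.14 in empty vector, and all 3 groups overlapped. The differences were 0.39 (SE 0.44) for SETDB1 OE and 0.39 (SE 0.40) for HC/KA-SETDB1 OE against empty vector, and 0.00 (SE 0.44) between these, with adjusted p = 0.827, 0.744 and 0.996. The second passing NFKB2 probe also put SETDB1 OE replicate 1 (6.95) far above replicate 2 (5.09), and its differences were 0.31 and 0.69 from empty vector for SETDB1 OE and HC/KA-SETDB1 OE, and -0.38 for the first group against the other. A further NFKB2 probe was detected on 0 arrays and was not used.

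Of the inhibitors that NF-kappaB induces, TNFAIP3 encodes A20, a ubiquitin-editing enzyme that shuts down signalling above the kinases. It read 6.27, 6.16 and 6.08 in empty vector, 8.26 and 6.53 in SETDB1 OE, and 5.14, 5.90 and 5.60 with HC/KA-SETDB1 OE. The 3 groups did not overlap, in the order SETDB1 OE, empty vector, HC/KA-SETDB1 OE, but the SETDB1 OE replicates lay 1.73 apart, farther than the other 2 groups lay from each other. In raw intensity, SETDB1 OE replicate 1 read 414.3 and replicate 2 read 171.5, while empty vector read 143.1, 141.9 and 141.6 and HC/KA-SETDB1 OE read 101.7, 131.0 and 114.2. Group means were 7.40 ± 1.23 (SD, n = 2), 6.17 ± 0.10 (SD, n = 3) and 5.55 ± 0.38 (SD, n = 3).

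SETDB1 OE exceeded HC/KA-SETDB1 OE in TNFAIP3 by 1.85 on the log2 scale (SE 0.42, 95% interval 0.92 to 2.77, 3.60-fold, limma adjusted p = 0.0381). Without SETDB1 OE replicate 1 the difference was 0.98 (adjusted p = 0.240), and without replicate 2 it was 2.71 (adjusted p = 0.0114). Wherever 1 SETDB1 OE array is left out, the group is a single array, and the fit takes its spread from the other groups. The value stayed between 1.65 and 2.02 without any 1 of the other arrays, with an adjusted p of 0.0513, 0.0664 and 0.0613 without empty vector replicates 1, 2 and 3 and 0.107 without HC/KA-SETDB1 OE replicate 3. The call was also lost in the authors' deposited log2 values, where the difference was 1.04 (adjusted p = 0.0864). Against empty vector the difference of SETDB1 OE was 1.22 (SE 0.42, 0.30 to 2.15, adjusted p = 0.305), and that of HC/KA-SETDB1 OE was -0.62 (SE 0.37, -1.45 to 0.21, adjusted p = 0.544).

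NFKBIA encodes I-kappaB-alpha, the inhibitor that retains the pairs in the cytoplasm and is quickly made again after its breakdown. It read 9.75, 9.84 and 9.37 in empty vector, 10.43 and 9.54 in SETDB1 OE, and 9.68, 9.38 and 10.07 with HC/KA-SETDB1 OE. SETDB1 OE replicate 1 was the highest of the 8 arrays, and replicate 2 fell within the range of empty vector. All 3 groups overlapped, and the order of their means did not exceed their spread. The difference of SETDB1 OE was 0.34 (SE 0.30, 95% interval -0.34 to 1.01, adjusted p = 0.762) against empty vector and 0.27 (SE 0.30, adjusted p = 0.658) against HC/KA-SETDB1 OE, and the sign of both turned without SETDB1 OE replicate 1 (-0.11 and -0.17). HC/KA-SETDB1 OE differed from empty vector by 0.06 (SE 0.27, adjusted p = 0.950).

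SOD2 encodes the manganese superoxide dismutase of mitochondria, a target induced by tumour necrosis factor. It read 9.15, 9.48 and 8.69 in empty vector, 10.55 and 10.09 in SETDB1 OE, and 9.41, 8.85 and 9.35 with HC/KA-SETDB1 OE. Both SETDB1 OE arrays stood above the other 6, and empty vector and HC/KA-SETDB1 OE overlapped. In raw intensity the SETDB1 OE arrays read 1702.7 and 1240.0 and the other 6 arrays from 504.9 to 793.2. The group means were 10.32 ± 0.32 (SD, n = 2) in SETDB1 OE, 9.11 ± 0.39 (SD, n = 3) in empty vector and 9.20 ± 0.31 (SD, n = 3) in HC/KA-SETDB1 OE.

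The SOD2 difference of SETDB1 OE from empty vector was 1.21 (SE 0.28, 95% interval 0.59 to 1.83, 2.31-fold), with an unadjusted p = 0.00140 and a limma adjusted p = 0.123. Over the 16 alternatives tried it stayed between 0.98 and 1.44, with unadjusted p between 0.001 and 0.0231. Against HC/KA-SETDB1 OE the difference was 1.11 (SE 0.28, 0.49 to 1.74, 2.17-fold, adjusted p = 0.0521). HC/KA-SETDB1 OE and empty vector differed by 0.10 (SE 0.25, -0.46 to 0.65, adjusted p = 0.917). A second SOD2 probe gave 1.09 (SE 0.34) for SETDB1 OE against empty vector and 1.04 (SE 0.34) against HC/KA-SETDB1 OE, with both SETDB1 OE arrays (7.46 and 7.25) above the other 6. A further SOD2 probe was detected on 1 array and was not used.

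ICAM1 encodes an adhesion molecule bound by leukocyte integrins, and it had another order of groups. It read 6.83, 6.86 and 6.93 in empty vector, 7.16 and 6.85 in SETDB1 OE, and 7.81, 6.81 and 8.01 with HC/KA-SETDB1 OE. Replicates 1 and 3 of HC/KA-SETDB1 OE were the 2 highest arrays, whereas replicate 2 was the lowest of all 8. HC/KA-SETDB1 OE differed from empty vector by 0.67 (SE 0.28, 95% interval 0.04 to 1.30, 1.59-fold, adjusted p = 0.363). Leaving out the lowest array of the group, replicate 2, gave 1.03 (limma adjusted p = 0.0367), whereas leaving out replicate 1 gave 0.54 (adjusted p = 0.472) and replicate 3 gave 0.44 (adjusted p = 0.721). The difference of SETDB1 OE from HC/KA-SETDB1 OE was then -0.91 (adjusted p = 0.0319), -0.41 (0.499) and -0.31 (0.683). With all arrays SETDB1 OE differed from HC/KA-SETDB1 OE by -0.54 (SE 0.32, adjusted p = 0.352) and from empty vector by 0.13 (SE 0.32, -0.57 to 0.83, adjusted p = 0.937).

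**Figure D2:**
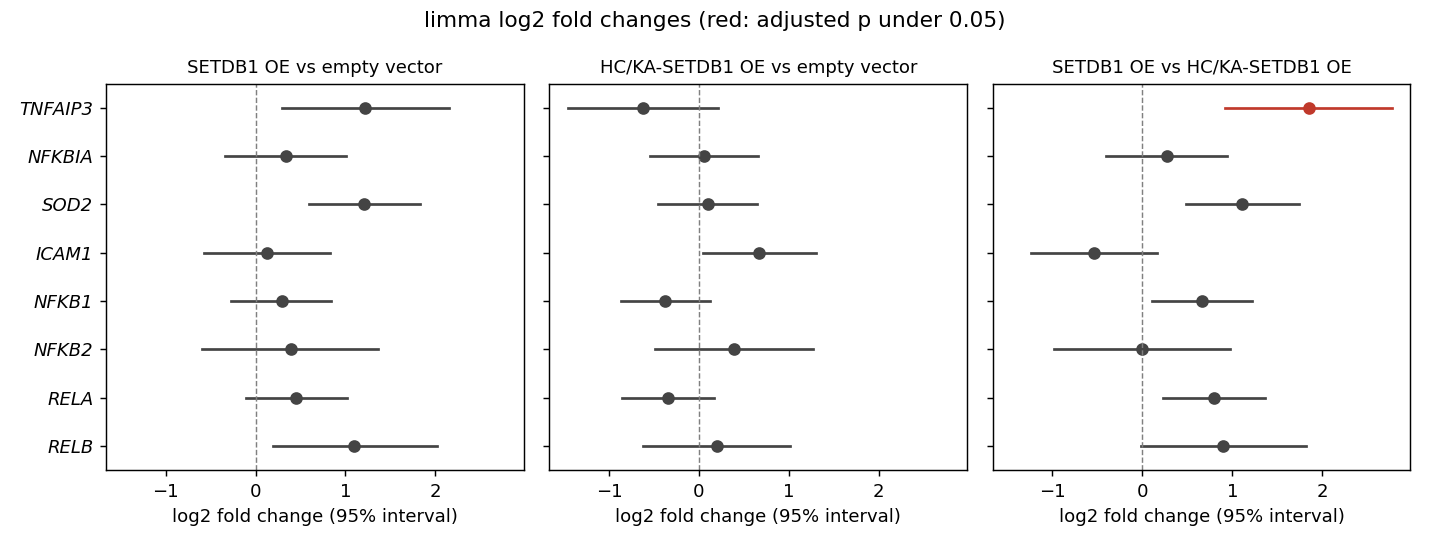
Log2 fold changes (x axis) of the 8 measured members in the 3 comparisons, from limma, as points with 95% intervals; red marks an adjusted p under 0.05. TNFAIP3 in SETDB1 OE against HC/KA-SETDB1 OE, at 1.85, is the 1 value in red, and the ICAM1 value in that panel is -0.54.

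All 8 members had a positive log2 difference between SETDB1 OE and empty vector, where 49.9% of all genes did, with a median of 0.42 (all genes 0.00). For 4 of them (TNFAIP3, SOD2, RELA and RELB) every SETDB1 OE array lay above every empty vector array, as did 15.7% of all genes. For SETDB1 OE against HC/KA-SETDB1 OE, 6 differences were positive (49.3% of all genes) with a median of 0.73 (all genes -0.01), and for 4 members (TNFAIP3, SOD2, NFKB1 and RELA) the SETDB1 OE arrays lay above, as for 17.8% of all genes. Between HC/KA-SETDB1 OE and empty vector, 5 were positive (51.8% of all genes) and 3 negative with a median of 0.08 (all genes 0.01), and for 1 member (TNFAIP3) the HC/KA-SETDB1 OE arrays lay below, as for 8.38% of all genes. Members of 1 pathway measured on the same arrays are not independent of each other.

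The 2 SETDB1 OE arrays differed from each other in these genes. Against the empty vector mean, the median of the 8 members was 0.88 on SETDB1 OE replicate 1, with 8 of 8 above 0, and 0.14 on replicate 2, with 5 of 8 above 0. Empty vector replicates 1 to 3, which themselves form that mean, gave 0.07, 0.14 and -0.14. The median on SETDB1 OE replicate 2 thus lay within the reach of the controls, although SOD2 stood at 0.98 on that array. All 8 members read higher on SETDB1 OE replicate 1 than on replicate 2, by 0.31 (ICAM1) to 1.73 (TNFAIP3), where 49.8% of all genes did. Without replicate 1, 5 of 8 members had a positive difference from empty vector. The HC/KA-SETDB1 OE arrays gave 0.18, -0.27 and 0.33, and on replicate 2 all 8 members were below the empty vector mean. The medians of all genes lay between -0.03 and 0.02 on the 8 arrays.

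**Figure D3:**
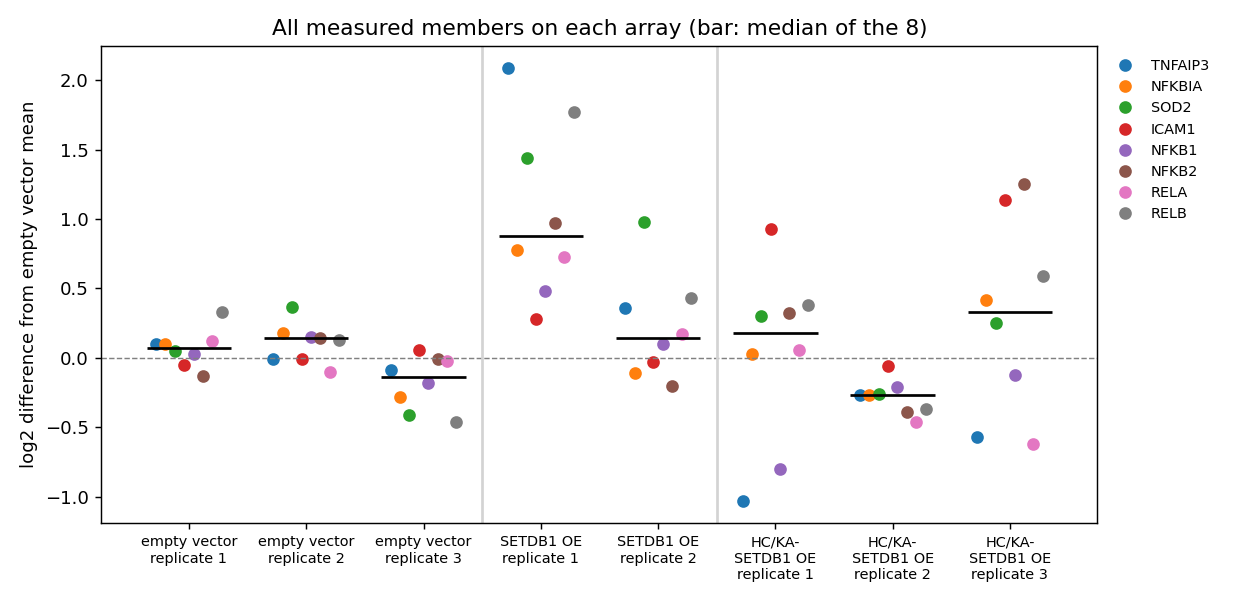
Log2 difference of each measured member from its empty vector mean (y axis) on each of the 8 arrays (x axis), with a bar at the median of the 8 genes. The bar stands at 0.88 on SETDB1 OE replicate 1 and between -0.27 and 0.33 on the other arrays, where SOD2 on SETDB1 OE replicate 2 and ICAM1 and NFKB2 on HC/KA-SETDB1 OE replicate 3 are far above it.

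Markers of the cells moved beside these values. The mean log2 level of the 9 measured pigment lineage markers was 7.83 and 7.88 on the SETDB1 OE arrays, 8.60 to 9.22 in empty vector and 8.20 to 9.21 in HC/KA-SETDB1 OE, and their summed level on the linear scale was 6394 and 6585, against 13196 to 20080 and 7673 to 12570. PMEL, the brightest of the 9 in empty vector (log2 levels from 12.89 to 13.38), was lower in both overexpression groups. It differed from empty vector by -1.92 (SE 0.38, limma adjusted p = 0.0848) in SETDB1 OE and -1.80 (SE 0.34, adjusted p = 0.0677) in HC/KA-SETDB1 OE. MLANA differed by -0.91 and -0.98, and these differences did not pass the test. The other 7 markers had a positive difference between HC/KA-SETDB1 OE and empty vector. TYR, the tyrosinase of melanin synthesis, fell in SETDB1 OE against empty vector (log2 difference -1.5, SE 0.24, limma adjusted p = 0.0382), the 1 of 9 that passed the test there. The TYR call was kept under 9 of 16 alternatives. Its difference stayed between -1.34 and -1.51 in the 5 fits without a single array that lost the call (without empty vector replicates 1 or 3, SETDB1 OE replicates 1 or 2, or HC/KA-SETDB1 OE replicate 3, adjusted p = 0.139, 0.186, 0.430, 0.163 and 0.0656). In SETDB1 OE against HC/KA-SETDB1 OE, where TNFAIP3 was called, TYR was lower by a log2 difference of -1.62 (SE 0.24, adjusted p = 0.00772), with the call kept under 14 of 16 alternatives. S100B, a calcium-binding protein of the neural crest lineage, was lower there too (-1.36, SE 0.32, adjusted p = 0.0445, kept under 7). The size is uncertain, as raw intensities in SETDB1 OE were 98.3 and 97.3, near the array medians. In the authors' deposited log2 values the S100B difference was -0.53 (adjusted p = 0.0994). Of 8 blood and immune markers 5 were measured, with a mean log2 level of 5.90 and 6.07 in SETDB1 OE, 6.26 to 6.43 in empty vector and 6.26 to 6.72 in HC/KA-SETDB1 OE. Their summed linear level was 1073 and 1306, 1351 to 1886 and 968 to 1874, of which CD68, a lysosomal protein with log2 levels from 9.61 to 10.74, made up most. CD14, a co-receptor for lipopolysaccharide, was lower in SETDB1 OE than with HC/KA-SETDB1 OE (-1.08, SE 0.25, adjusted p = 0.0381, kept under 6 alternatives). It was also dim in SETDB1 OE, at raw intensities of 106.1 and 96.9. In the authors' deposited log2 values the CD14 difference was -0.41 (adjusted p = 0.101). Of 7 fibroblast markers 6 were measured, with a mean log2 level of 5.99 and 6.55 in SETDB1 OE, 6.16 to 6.56 in empty vector and 5.94 to 6.08 in HC/KA-SETDB1 OE, and a summed linear level of 891 and 1691, 1101 to 1842 and 2236 to 2490. DCN, the matrix proteoglycan decorin, was below detection on all 3 HC/KA-SETDB1 OE arrays and higher in SETDB1 OE (adjusted p = 0.0478, kept under 4 alternatives). The size of this DCN difference is uncertain. On the log2 scale it was 1.20, against 1.62 and 0.78 without SETDB1 OE replicates 1 and 2. In the authors' deposited log2 values it was 0.51. In the same comparison COL1A2 differed by -1.26 (SE 0.41, adjusted p = 0.105) and LUM by 0.82 (SE 0.40, adjusted p = 0.264). The part of these markers in the members' values was not tested. Fewer cells of a type and less RNA per cell cannot be told apart on these arrays.

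In the rest of the pathway, 71 of 87 listed genes were measured. Between SETDB1 OE and empty vector 0 passed the test (0.265% of all genes), and without adjustment 15 were higher and 1 lower at p under 0.05 (5.14% and 5.69% of all genes). Between HC/KA-SETDB1 OE and empty vector 1 passed, lower (0.322% of all genes in either direction), and 6 were higher and 3 lower without adjustment (6.46% and 6.07%). For SETDB1 OE against HC/KA-SETDB1 OE 4 passed, all higher (2.08% of all genes), and 14 were higher and 5 lower without adjustment (10.4% and 11.7%). The medians over the 71 were 0.13, 0.03 and 0.08, where those of all genes were 0.00, 0.01 and -0.01. These lists were written by pathway role with earlier results of these data known, so their counts are no independent test of the pathway. The 4 higher genes were a ligand, an inhibitor and 2 targets. Without SETDB1 OE replicate 1, 0 of the 4 were called: PTGS2 stayed at 1.84 (adjusted p = 0.200) and IL1B was 1.80 (0.162), while IL6 was 2.31 (0.0872) and NFKBIE 1.23 (0.285). Calls over all genes fell in that fit as well. Without HC/KA-SETDB1 OE replicate 2, 6 genes were called higher, where the count of all genes called rose from 606 to 1315.

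Of the ligands, 4 of 8 were measured. IL1B, the cytokine interleukin-1-beta, was detected on 1 of 3 empty vector arrays (5.67, with 4.54 and 4.47 on the others), on both SETDB1 OE arrays (6.89 and 6.60) and on 2 of 3 HC/KA-SETDB1 OE arrays (4.96 and 4.89, with 4.55 on the other). Both SETDB1 OE arrays were above all others. IL1B was higher in SETDB1 OE than in HC/KA-SETDB1 OE by 1.94 (SE 0.34, adjusted p = 0.0150), and the difference from empty vector was 1.85 (SE 0.34, adjusted p = 0.0583). The call was also lost without SETDB1 OE replicate 2 (difference 2.09, adjusted p = 0.0827) and without HC/KA-SETDB1 OE replicate 3 (1.99, adjusted p = 0.0511). In the authors' deposited log2 values the difference was 0.83 and was called (adjusted p = 0.0315). IL1A, its relative, gave 1.22 against empty vector (SE 0.32, adjusted p = 0.176), a size that is uncertain with IL1A detected on 1 of 3 empty vector arrays. TNF was not detected on 2 or more arrays.

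Of 9 measured receptors, 0 were called in the 3 comparisons. IL1R1, the signalling receptor of interleukin-1, was below detection on the 3 empty vector arrays, so the size of its difference is uncertain. The SETDB1 OE mean lay above, which did not pass the test (log2 difference 0.59, 95% interval 0.14 to 1.03, adjusted p = 0.311). TNFRSF1B, a receptor of tumour necrosis factor, differed by 0.78 (SE 0.21, adjusted p = 0.171) between HC/KA-SETDB1 OE and empty vector. It was detected on 1 of 3 empty vector arrays, so this size is uncertain too. Of 14 measured adaptors and ubiquitin ligases, 0 were called. BIRC2, the close relative of the unmeasured BIRC3, read 8.56, 8.48 and 8.42 in empty vector, 9.87 and 9.38 in SETDB1 OE, and 9.06, 8.45 and 8.97 with HC/KA-SETDB1 OE. Both SETDB1 OE arrays were the highest, and the difference from empty vector was 1.14 (SE 0.24, adjusted p = 0.103). MYD88, the adaptor of interleukin-1 and Toll-like receptors, was at 0.74 (SE 0.19, adjusted p = 0.0543) in SETDB1 OE against HC/KA-SETDB1 OE.

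Of 7 measured kinases, 0 were called. MAP3K14, the NF-kappaB-inducing kinase of the alternative pathway, gave 0.73 (SE 0.27, adjusted p = 0.342) in SETDB1 OE and 0.57 (SE 0.24, adjusted p = 0.360) in HC/KA-SETDB1 OE against empty vector. Of the 6 other subunit and I-kappaB genes, 1 was called. NFKBIE, which encodes I-kappaB-epsilon, read 7.26, 7.61 and 7.27 in empty vector, 8.51 and 7.55 in SETDB1 OE, and 5.82, 7.05 and 6.09 with HC/KA-SETDB1 OE. The HC/KA-SETDB1 OE arrays were the 3 lowest, with replicate 2 nearest to the controls. NFKBIE was higher in SETDB1 OE than in HC/KA-SETDB1 OE by 1.71 (SE 0.37, adjusted p = 0.0337), while HC/KA-SETDB1 OE differed from empty vector by -1.06 (SE 0.33, adjusted p = 0.231). That NFKBIE call was also lost without empty vector replicates 2 or 3, SETDB1 OE replicate 2 or HC/KA-SETDB1 OE replicate 3, with differences of 1.71, 1.71, 2.18 and 1.59 (adjusted p = 0.0575, 0.0559, 0.0671 and 0.114), and in the authors' deposited log2 values (1.11, adjusted p = 0.0519). Of the 10 other brakes of the pathway, 0 were called. TNIP1, a partner of A20, gave 0.60 (SE 0.20, adjusted p = 0.259) between HC/KA-SETDB1 OE and empty vector.

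Of 27 further targets 21 were measured, with a median difference of 0.53 between SETDB1 OE and empty vector, 17 of 21 positive (49.9% of all genes) and 0 called (0.265%). IL6, the cytokine interleukin-6, read 9.18 and 6.92 in SETDB1 OE and from 4.38 to 5.65 on the other 6 arrays, of which 2 detected it. It was higher in SETDB1 OE than in HC/KA-SETDB1 OE by 3.44 (SE 0.56, adjusted p = 0.0114), and the difference from empty vector was 3.15 (SE 0.56, adjusted p = 0.0559). With IL6 undetected on 2 of 3 HC/KA-SETDB1 OE arrays the size is uncertain: it was 2.31 and 4.57 without SETDB1 OE replicates 1 and 2, and 1.91 in the authors' deposited log2 values, where the call was lost (adjusted p = 0.0514). PTGS2, the inducible cyclooxygenase, read 9.11 and 9.10 in SETDB1 OE and from 6.63 to 7.89 elsewhere, and was higher than in HC/KA-SETDB1 OE by 1.84 (SE 0.39, adjusted p = 0.0289). The PTGS2 call was also lost without SETDB1 OE replicate 2, where the difference stayed at 1.84 (adjusted p = 0.153), and without HC/KA-SETDB1 OE replicate 3 (1.53, adjusted p = 0.0946). These 2 were the targets called in that comparison, where 2.08% of all genes were called higher. Without adjustment 7 of the 21 were higher and 3 lower at p under 0.05 (10.4% and 11.7% of all genes). The lower ones were TNFAIP2 (-0.72), CFLAR (-0.95) and NINJ1 (-0.59).

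CXCL8, the neutrophil chemokine interleukin-8, read 9.91, 10.27 and 8.84 in empty vector, 12.98 and 11.16 in SETDB1 OE, and 10.37, 9.54 and 10.62 with HC/KA-SETDB1 OE. Its SETDB1 OE arrays were the 2 highest, and the difference from empty vector was 2.40 (SE 0.55, adjusted p = 0.123). BCL2A1, an anti-apoptotic BCL2 relative, read 6.37, 6.69 and 6.40 in empty vector, 6.19 and 5.73 in SETDB1 OE, and 5.06, 4.82 and 5.25 with HC/KA-SETDB1 OE. It fell in HC/KA-SETDB1 OE against empty vector by 1.44 (log2 difference -1.44, SE 0.20, adjusted p = 0.0226), replicate 2 included. This call was lost without empty vector replicates 1, 2 or 3 or HC/KA-SETDB1 OE replicate 3 (adjusted p = 0.0773, 0.146, 0.0684 and 0.0711), with differences between -1.34 and -1.54, and in the authors' deposited log2 values, where the difference was -0.60 (adjusted p = 0.0877). Over the 21 targets, the median difference from the empty vector mean was 0.87 on SETDB1 OE replicate 1 and 0.01 on replicate 2, with 17 and 12 genes above 0.

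**Figure D4:**
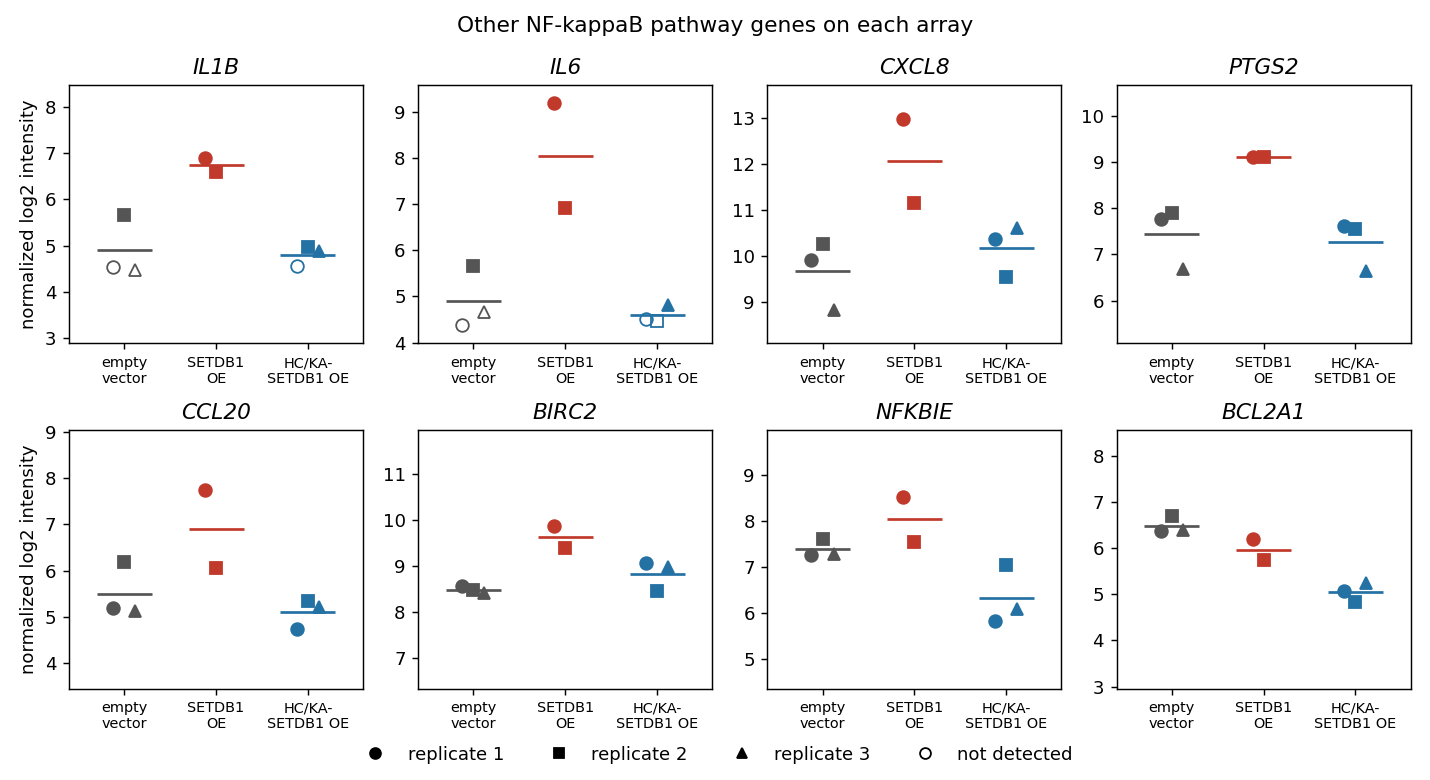
Normalized log2 intensity (y axis, 1 panel per gene, each with its own range) of 8 other NF-kappaB pathway genes on each array, by group, with lines at group means and open symbols where the probe was not detected. PTGS2 and IL1B are close together on both SETDB1 OE arrays, whereas IL6, CXCL8 and CCL20 are higher on replicate 1.

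For each member the 3 genes with the closest profile over the 8 arrays were taken, by the root mean square difference between mean-centred log2 values, members left out. For TNFAIP3 these were LTO1 (0.267), CCL20 (0.317) and MB21D2 (0.327), where the median over all genes was 0.90. CCL20, a chemokine gene also on the list of targets, read 7.75 on SETDB1 OE replicate 1 and from 4.74 to 6.18 on the other arrays. For RELB they were IRF1 (0.234), CRY1 (0.244) and PPP1R15A (0.264), with a median over all genes of 0.70. IRF1, an interferon regulatory transcription factor, read 8.90 on SETDB1 OE replicate 1 and from 6.64 to 7.45 elsewhere.

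For SOD2 the closest were H4C14 (0.207), DDAH1 (0.210) and RAB21 (0.211), with a median over all genes of 0.64. For ICAM1 they were AIPL1 (0.117), SSPN (0.143) and CRAT (0.15), with a median of 0.53. For NFKBIA they were DTX3L (0.134), TEX44 (0.135) and SCLY (0.143), and for NFKB2 ZNF721 (0.231), SNORA5B (0.251) and CLDN15 (0.274), with medians of 0.44 and 0.62. For NFKB1 they were APTX (0.098), CFAP298 (0.100) and PRDM11 (0.102), and for RELA UGT2B7 (0.126), MED10 (0.127) and STAM2 (0.137), with medians of 0.43 and 0.47. With 8 arrays and 13974 genes, such closeness describes these arrays only.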

How the data were processed

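Per the file headers, the values the authors deposited for each probe are bead intensities before normalization, each with a detection p-value. The sources used here do not say how that p-value was made. The authors also deposited a processed log2 table, whose columns each had a median of 6.53, followed their own array (lowest correlation 0.9996) and differed from quantile-normalized log2 intensities by a median of 0.0145. From the values it is log2, quantile-normalized and not centred, and it served as an alternative. Of 48107 probes, 5 with a missing cell were left out.

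Intensities were corrected and quantile-normalized with neqc in limma 3.58.1 (R 4.3.3, offset 16, background from the detection p-values). Probes passed where the detection p was under 0.05 on 2 or more arrays (26689 probes), and a gene was read from its brightest passing probe. Symbols came from the platform annotation, updated with a RefSeq table of GRCh38.p14. Groups were compared with lmFit and eBayes on all 8 arrays, two-sided, with Benjamini-Hochberg adjustment over 13974 genes. The fit was tested on simulated data. Tables and plots used the R package data.table (version 1.17.8), pandas 2.3.3 and matplotlib 3.10.9 under Python 3.11.15. Differences between groups were taken within a probe, while marker lists were summed or averaged over their probes. The number of arrays limits the precision.

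The members and all gene lists were chosen with earlier results of these data known. All members were named, with, from each pathway list and comparison, the measured genes of smallest adjusted p (2, or 4 for targets), from which the text gives some, and the 3 closest profiles per member. Replicate numbers come from the sample titles. Deviations from the group means of same-numbered arrays correlated at 0.46, 0.19 and 0.15 between empty vector and HC/KA-SETDB1 OE. However, empty vector replicate 3 correlated more closely with HC/KA-SETDB1 OE replicate 2 (0.36). The reported fits had a term for each group and none for the replicate number, so no reported comparison is paired. An alternative fit, the replicate block, added the replicate numbers of all arrays, SETDB1 OE included.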

Additional observations from a re-analysis of the deposited data

How the results depend on the processing

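Each member was recomputed under 16 alternatives. Of the 384 values, 356 kept their sign and their side of the threshold, 8 lost the call, 6 gained one and 14 changed sign. Between SETDB1 OE and empty vector, 0 members were called under all 16. Between HC/KA-SETDB1 OE and empty vector, leaving out 1 array gave 0 to 1. The 1 was ICAM1 without HC/KA-SETDB1 OE replicate 2, where the all-gene count went from 45 to 255. For SETDB1 OE against HC/KA-SETDB1 OE the 1 called member became 0 with the authors' processed table, 0 with no filter on detection and 0 with only the 2 groups compared, where TNFAIP3 had adjusted p = 0.0864, 0.0932 and 0.0998. It became 3 with array weights (SOD2 and RELA added, adjusted p = 0.0437 and 0.0451). Leaving out 1 array gave 0 to 3: 0 without any 1 of the empty vector arrays, SETDB1 OE replicate 1 or HC/KA-SETDB1 OE replicate 3, 3 without HC/KA-SETDB1 OE replicate 1 and 2 without its replicate 2. The cause of these changes was not tested.

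With the replicate block no member's call changed, TNFAIP3 in SETDB1 OE against HC/KA-SETDB1 OE stood at 1.84 (adjusted p = 0.0414), NFKB2 there turned to 0.21, and the all-gene count between HC/KA-SETDB1 OE and empty vector went from 45 to 127. NFKB2 in the same comparison, 0.00 as reported, was 0.03 with scaling to the 75th percentile, and from -0.59 to 0.58 with 1 array left out. The other signs that turned did so with 1 array left out. In SETDB1 OE against empty vector, leaving out single arrays gave ICAM1 -0.03 to 0.28, NFKB2 -0.20 to 0.97 and NFKBIA -0.11 to 0.78, each lowest without SETDB1 OE replicate 1. In HC/KA-SETDB1 OE against empty vector it gave NFKB2 -0.04 to 0.78 and NFKBIA -0.12 to 0.23, lowest without HC/KA-SETDB1 OE replicate 3, and RELB -0.03 to 0.48 and SOD2 -0.11 to 0.28, lowest without empty vector replicate 3. NFKBIA in SETDB1 OE against HC/KA-SETDB1 OE was -0.17 (without SETDB1 OE replicate 1) to 0.72. The count of all genes called ranged from 11 to 155 (37 as reported), 2 to 255 (45) and 41 to 1315 (606) in the 3 comparisons. Over the 16 alternatives the calls named for other pathway genes were kept in 12 (IL1B, IL6, PTGS2), 10 (BCL2A1) and 8 (NFKBIE). In 1 of the 16, which required detection on at least 5 arrays, IL6 did not pass the filter and was not tested. With array weights, or with only the 2 groups compared, 3 of the 71 pathway genes were called higher in SETDB1 OE against empty vector, where 0 were as reported, and 1 was with the replicate block and 1 with scaling to the 75th percentile. Over all genes 140, 155, 51 and 41 were called at these 4 settings, against 37 as reported. Leaving out 1 array gave 0 to 2 higher pathway genes, with 2 without HC/KA-SETDB1 OE replicate 1, where 103 of all genes were called. In SETDB1 OE against HC/KA-SETDB1 OE the replicate block gave 5 higher pathway genes in place of 4, with 665 against 606 of all genes called. SETDB1 OE had 2 arrays, and TNFAIP3, RELA, RELB and NFKB2 were dim, which limits their precision.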
